A study of Mus musculus with 52 samples.

Results

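The 36 genes described here encode the working parts of the lysosome: 10 proteases (7 cysteine cathepsins and 3 other enzymes), 8 glycan-degrading enzymes, 7 lipid-degrading enzymes and their activators, 6 membrane proteins, 4 subunits of the proton pump and Tfeb, a transcription factor of lysosomal genes. They were listed by name as genes of the lysosome, with earlier results of these data known, Ctsh among them, and all 36 were among the 24421 gene symbols of the count tables. The cells were Cilia-APEX-IMCD3, a line of mouse inner medullary collecting duct cells that carries an APEX enzyme directed to the cilium. All clones went through CRISPR base editing with BE4-Gam, a cytosine base editor, and were grown from single sorted cells. Control clones received the editor and a guide vector without a target oligo. Mutant clones carried homozygous missense alleles of Wdr34 or Wdr60, the intermediate chains of the dynein-2 motor.

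RNA was sequenced in 52 libraries of 13 clones, with a clone counted separately in each state and 4 technical replicate libraries for each. The study's methods name 4 control and 3 mutant clones, so the 2 states may hold the same clones. Only Wdr60 is paired between states by the labels, so the control clones could not be paired and were tested as separate samples. Ciliated cells comprised Wdr60 p.Ala911Val, 2 Wdr34 clones labelled 1 and 3 for which the labels give no allele, and the 4 controls D8, H12, A4 and G7. The non-ciliated set held Wdr34 p.Arg183Trp, Wdr60 p.Ala911Val and 4 controls named AB, 1, 2 and 3. By the study's methods ciliated cells were kept in reduced serum, although the sample labels give full-serum medium for all libraries. The study's results place the making of the ciliated p.Gly394Ser clone after the sequencing of the non-ciliated cells. No other sequencing times are given. Ciliation, serum and any difference in sequencing time therefore cannot be told apart. Each edited gene in a state was represented by 1 clone, apart from the 2 ciliated Wdr34 clones. The Wdr60 clone also carried a heterozygous synonymous change. The study's text includes both Wdr34 alleles among its ciliated mutants, so the ciliated Wdr34 clones would carry different alleles. Which of them carries p.Gly394Ser is not given by the labels. That allele came with a heterozygous missense change at the neighbouring residue and was not in the non-ciliated set.

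The lysosome digests proteins, glycans and lipids with acid hydrolases, most of which are tagged with mannose 6-phosphate in the Golgi and delivered through endosomes. A V-type ATPase pumps protons into its lumen, with a membrane V0 sector and a cytosolic V1 sector that turns over ATP, and the low pH activates the cathepsins. When nutrients fall, Tfeb leaves the lysosomal surface for the nucleus and binds short palindromic motifs, the CLEAR elements, in the promoters of many lysosomal genes.

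These motifs were looked for in RefSeq promoters of GRCm38.p6, taken from 250 bases before to 50 bases after the gene's start, which were found for 31 of the 36 genes and not for Asah1, Ctsh, Ctsb, Atp6v1h and Npc1. Both strands were searched. No promoter of a lysosomal gene listed here held the full CLEAR element, which 100 of 27025 genes (0.37%) held. The 8 bases GTCACGTG, which contain the E-box core CACGTG, were in 9 of the 31 promoters (29%). The share was 2.55% of all promoters and 3.27% of those of genes in the count tables. The 9 genes were Ctsa, Ctsd, Gla, Glb1, Naglu, Sgsh, Lamp1, Mcoln1 and Atp6v0d1. The core CACGTG alone was in 13 (41.9%) against 8.09% and 9.17%, the other 4 being Ctsf, Ctsl, Gaa and Atp6v1a. The windows below come from the 4 of these 9 genes that were higher in ciliated control clones, and from Glb1 and Ctsd, which did not pass that test. Capitals mark GTCACGTG or its reverse complement, and each window is written 5′ to 3′ on the strand of the gene. The entry of Atp6v0d1 was marked as not matching a transcript, whereas those of the other windows shown matched.
Mcoln1, chr8:3500435-3500464, plus strand: gggtcgcgcttGTCACGTGttcagttcagg
Mcoln1, chr8:3500463-3500492, plus strand: ggcgccccgctCACGTGACcgcggcgcatg
Lamp1, chr8:13159122-13159151, plus strand: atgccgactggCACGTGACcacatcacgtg
Sgsh, chr11:119355521-119355550, minus strand: ggcctgccgtgCACGTGACcgtggggagcg
Atp6v0d1, chr8:105566051-105566080, minus strand: gccctactgcgGTCACGTGagacgcggtgc
Glb1, chr9:114401017-114401046, plus strand: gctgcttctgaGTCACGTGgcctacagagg
Ctsd, chr7:142387907-142387936, minus strand: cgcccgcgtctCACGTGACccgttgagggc

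Library totals ranged from 14816218 to 28084979 counts, so that 1 CPM (counts-per-million) stood for 14.8 to 28.1 counts. A library with 0 counts of a gene allows a level of up to 0.107 to 0.202 CPM (3 counts, counting error only). The labelled cell type was checked against its markers. Of 17 collecting duct markers, the transcription factors Hoxb7, Pax2, Pax8 and Tfcp2l1, the keratins Krt8, Krt18 and Krt19, Cdh1 and Epcam were detected throughout. The defining channel Aqp2 of principal cells was at 0 in every clone but 1, and Aqp3, Aqp4, Avpr2, Scnn1a, Scnn1b, Scnn1g and Gata3 were at most at 1.06, 0.244, 0.164, 5.5, 0.112, 1.37 and 2.86 CPM. One control clone in each state stood apart. Krt8, a keratin of simple epithelia, was at 26.8 CPM in ciliated control G7 and 41.5 CPM in non-ciliated control 2, against 375 to 939 CPM in the other 6 controls. The adhesion protein Cdh1 was at 14.7 and 4.27 CPM against 251 to 649 CPM. Other markers of the list went the opposite way, with Pax2 at 315 and 280 CPM in G7 and control 2 against 79.6 to 180 CPM, and Pax8 at 427 and 303 CPM against 151 to 282 CPM. The ciliated Wdr34 clone 3 also had low Krt8, at 76.5 CPM. The counts of called genes in the list between states and among control clones, and the medians between mutants and controls, are given also without G7 or control 2. In bulk RNA, fewer cells that express a gene and less RNA per cell cannot be told apart.

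Of the 36 genes, 35 had at least 1 count in some library. Ctss, a cathepsin of antigen-presenting cells, had 0 counts in all 52 libraries. Ctsf, another cysteine cathepsin, had at most 4 counts, in 8 libraries. Hexa, an enzyme of ganglioside breakdown, had at most 8 counts in every library outside 1 clone. In the ciliated Wdr34 clone 3 its 4 libraries held 194 to 227 counts, at a level of 10.9 CPM ± 0.589 (SD, n = 4 libraries). The clone with the next highest level was ciliated control H12, at 0.339 CPM ± 0.0797. Hexa shares 12.8% of its exon bases with Tmem202 on the opposite strand, and the strand setting of the counting was not given in the sources used here.

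Levels of different genes were compared only per kilobase of exon. In ciliated controls Lamp1, the main glycoprotein of the lysosomal membrane, was highest at 478 CPM per kb ± 106 (SD, n = 4 clones), followed by Psap, the precursor of the saposins that help lipid hydrolases, at 457 CPM per kb ± 181. Their values overlapped over the clones. Ctsd, the main aspartic protease, came next at 270 CPM per kb ± 66.2. In non-ciliated controls Lamp1 and Psap had the highest means as well, at 297 ± 29.8 and 241 ± 82.5 CPM per kb. Psap spanned 194 to 364 CPM per kb there, with control 2 highest, and overlapped with Ctsd at 209 CPM per kb (199 to 223). Ctsh, an aminopeptidase among the cathepsins, stood at the other end. By its mean it was the lowest of the 33 genes tested between states, at 3.45 CPM per kb in ciliated controls (clones 0.0687 to 4.86) and 1.66 CPM per kb in non-ciliated controls (0.0465 to 3.18). Ctsc, which activates serine proteases of granules, was close to it at 4.32 CPM per kb (0.142 to 7.01) and 3.39 CPM per kb (0.163 to 5.81), and the clones of Ctsh and Ctsc overlapped in both states. Lipa, acid lipase, overlapped with Ctsh in ciliated controls, at 5.91 CPM per kb (2.24 to 13.4). G7 was the lowest of these clones for Ctsh and the highest for Lipa, so the order of these genes there depends on G7.

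The first comparison asked how the lysosomal genes differed between ciliated and non-ciliated control clones. It used edgeR's quasi-likelihood F test with the 4 libraries of a clone summed, so that the 4 ciliated and 4 non-ciliated clones were the samples, and a gene was called at a Benjamini-Hochberg adjusted p under 0.05 over 13119 genes. Of the 36 genes, 33 passed the expression filter. The 9 genes that were higher in ciliated controls (27.3% of 33, against 6.11% of all genes tested) were Gaa, Lamp2, Atp6v0d1, Mcoln1, Sgsh, Neu1, Atp6v0a1, Tpp1 and Lamp1. One, Gusb, was lower (3.03%, against 7.33%). The log2 fold change was positive for 30 of the 33 genes (90.9%, against 50.9% of all genes), with a median of 0.54 against 0.01, and 17 (51.5%, against 32.1%) had an unadjusted p under 0.05. By class, the counts of higher genes were 3 of 6 membrane proteins, 2 of 4 pump subunits, 3 of 7 glycan-degrading enzymes, 1 of 3 other proteases, 0 of 5 cysteine cathepsins and 0 of 7 lipid-degrading enzymes and activators.

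**Figure D1:**
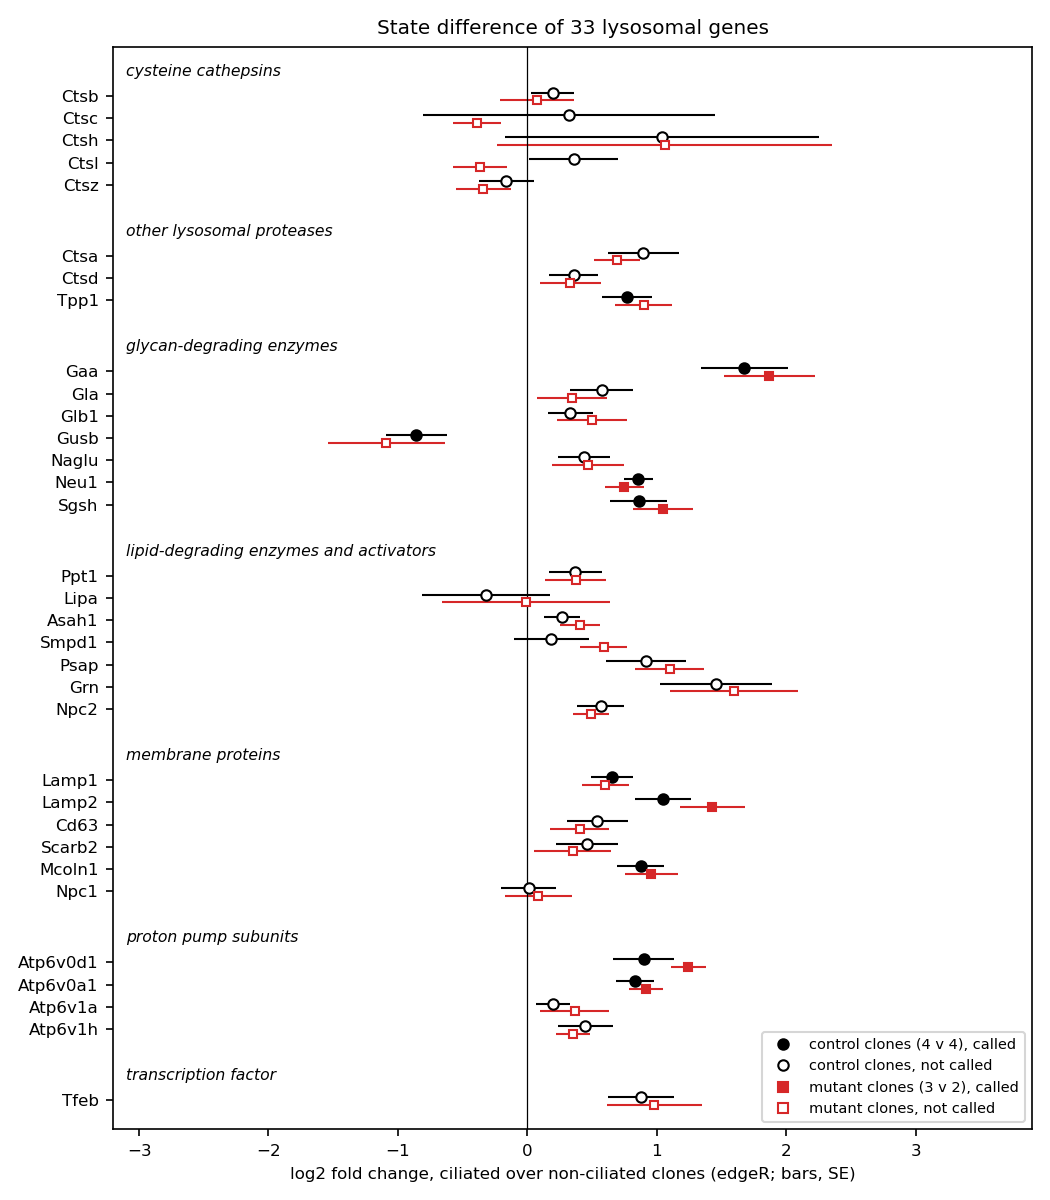
Log2 fold change of 33 lysosomal genes, ciliated over non-ciliated clones, with its SE as bars, ordered by class, for the 8 control clones and the 5 mutant clones separately; filled symbols are called. Most points lie right of 0, with medians of 0.54 in controls and 0.49 in mutants, and Ctsh and Ctsc have the widest bars in controls.

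Among the glycan-degrading enzymes, Gaa (acid alpha-glucosidase, which breaks down glycogen) had the largest fold change. It was at 191, 280, 203 and 488 CPM in the ciliated controls D8, H12, A4 and G7 and at 86.8, 64, 131 and 75.7 CPM in the non-ciliated controls AB, 1, 2 and 3. The groups did not overlap, and the fold change on the log2 scale was 1.68 (SE 0.34, edgeR adjusted p = 0.0196). Neu1, the lysosomal sialidase, had the smallest SE, at 129, 117, 147 and 129 CPM in ciliated and 70.8, 65, 79.8 and 70.6 CPM in non-ciliated controls. On the log2 scale it rose by 0.86 (SE 0.11, edgeR adjusted p = 0.00941), and it was the one lysosomal gene listed here that was called whichever control clone was left out. Sgsh, a sulfatase of heparan sulfate breakdown, was at 18.8 to 35.1 CPM in ciliated and 11.2 to 17.1 CPM in non-ciliated controls, a rise of 0.86 on the log2 scale (SE 0.22, edgeR adjusted p = 0.0377). It shares 21.6% of its exon bases with Card14 on the other strand.

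Gusb, beta-glucuronidase, moved the other way. It was at 51.4, 36.9, 44.3 and 32.6 CPM in the ciliated controls D8, H12, A4 and G7 and at 81.8, 72.2, 47.4 and 95.3 CPM in the non-ciliated controls AB, 1, 2 and 3. Control 2 lay below D8, so the groups overlapped. On the log2 scale the difference was -0.86 (SE 0.24, edgeR adjusted p = 0.0468), and the call was lost in every fit that left out 1 control clone except the fit without control 2, and with size factors by RLE. The remaining glycan enzymes Gla, Glb1 and Naglu had log2 fold changes of 0.58, 0.33 and 0.44 and did not pass the test.

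The membrane proteins and the pump gave 5 of the 9 calls. Lamp2, a structural glycoprotein that also serves chaperone-mediated autophagy, was at 332, 428, 376 and 542 CPM in the ciliated controls D8, H12, A4 and G7. In the non-ciliated controls AB, 1, 2 and 3 it was at 169, 168, 284 and 167 CPM, with control 2 above the other three. The difference on the log2 scale was 1.05 (SE 0.22, edgeR adjusted p = 0.0207). Mcoln1, a calcium and cation channel, rose by 0.88 on the log2 scale (SE 0.18, edgeR adjusted p = 0.0210), from 36.7 to 65.8 CPM in non-ciliated to 79.8 to 101 CPM in ciliated controls. Lamp1 rose by 0.65 (SE 0.16, edgeR adjusted p = 0.0359). It shares 9.31% of its exon bases with Grtp1 on the other strand. Npc1 (cholesterol export), Cd63 and Scarb2 (a receptor that carries glucocerebrosidase) did not pass, with log2 fold changes of 0.01, 0.54 and 0.46.

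Both called pump subunits belong to the V0 sector. Atp6v0a1, the subunit through which protons pass, was at 203, 157, 205 and 190 CPM in the ciliated controls D8, H12, A4 and G7 and at 90.4, 90, 129 and 107 CPM in the non-ciliated controls AB, 1, 2 and 3 (log2 fold change 0.83, SE 0.15, edgeR adjusted p = 0.0147). Atp6v0d1, which joins V0 to the stalk, was at 123 to 191 CPM against 60.1 to 114 CPM (log2 fold change 0.90, SE 0.24, edgeR adjusted p = 0.0411). The V1 subunits Atp6v1h and Atp6v1a had log2 fold changes of 0.45 and 0.20 and did not pass the test. Whether V0 and V1 subunits differ was not tested.

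Among the proteases only Tpp1, a tripeptidyl peptidase, passed, with 150 to 276 CPM in ciliated and 95.1 to 129 CPM in non-ciliated controls (log2 fold change 0.77, SE 0.19, edgeR adjusted p = 0.0363). Ctsa, which protects Neu1 and beta-galactosidase in a complex, had groups that did not overlap, at 207 to 406 CPM against 111 to 206 CPM. Its log2 fold change was 0.90 with an edgeR adjusted p = 0.0616. Together with the 9 called genes it made up the 10 of 33 whose ciliated controls all lay above the non-ciliated ones (30.3%, against 10.3% of all genes); 0 of 33 lay wholly below (against 11.8%). The cysteine cathepsins Ctsb, Ctsl, Ctsz, Ctsh and Ctsc had log2 fold changes of 0.20, 0.36, -0.16, 1.04 and 0.32, none of which passed. Those of Ctsh and Ctsc had SEs of 1.21 and 1.13.

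The lipid enzymes and Tfeb gave no call in the same fit. Grn, progranulin, a lysosomal regulator of lipid enzymes, was at 209, 375, 274 and 827 CPM in the ciliated controls D8, H12, A4 and G7 and at 163, 99.6, 215 and 123 CPM in the non-ciliated controls AB, 1, 2 and 3, which overlap at D8 and control 2. Its log2 fold change of 1.46 (SE 0.43) had an edgeR adjusted p = 0.0577. Tfeb was at 24.3, 30.3, 38.9 and 49.4 CPM in D8, H12, A4 and G7 and at 21.3, 16.7, 24.8 and 14.7 CPM in AB, 1, 2 and 3. The log2 difference was 0.88 (SE 0.26, edgeR adjusted p = 0.0550). Psap (0.92) and Npc2 (0.57, a carrier of cholesterol) also had unadjusted p under 0.05, whereas Lipa (-0.32, acid lipase), Smpd1 (0.19, acid sphingomyelinase), Asah1 (0.27, acid ceramidase) and Ppt1 (0.37, a thioesterase) did not.

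**Figure D2:**
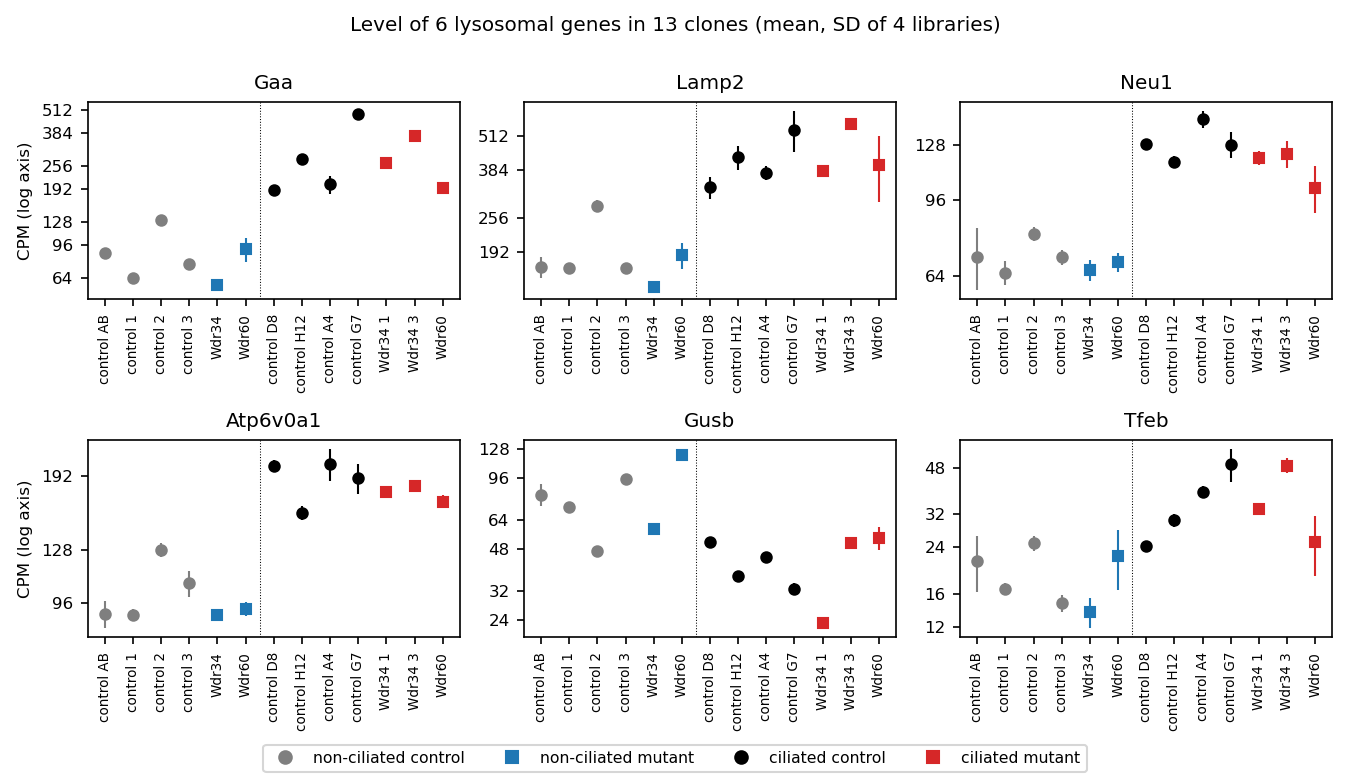
Level of Gaa, Neu1, Lamp2, Atp6v0a1, Gusb and Tfeb in each of the 13 clones, in CPM on a log axis, with the mean and SD of 4 libraries as point and bar. For Gaa, Neu1, Lamp2 and Atp6v0a1 every ciliated clone lies above every non-ciliated clone, within controls and within mutants. The groups of Gusb overlap in controls.

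How many genes were called depended on the clones. The share of all genes called higher moved with them and is given in parentheses. Leaving out 1 control clone at a time gave 1 higher gene without non-ciliated control 1 (1.05%), 2 without AB (2.51%), 2 without control 3 (1.39%) and 2 without H12 (2.29%). The counts were 5 without A4 (2.23%), 7 without G7 (5.59%), 10 without D8 (5.17%) and 12 without control 2 (7.67%). Without both G7 and control 2, 13 of 33 were higher (against 10% of 13229 genes) and 2 lower (against 10.8%). There Tfeb, Grn, Ctsa, Psap and Ctsh were called, Lipa joined Gusb as lower, and Sgsh was not called. This fit was chosen after the data were seen. G7 and control 2 were the lowest controls for Ctsh (0.309 and 0.209 CPM), and G7 was the highest for Lipa. The calls of Ctsh and Lipa here thus depend on which clones were left out and are no test.

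The 5 mutant clones gave a second set of samples for the same state difference, a comparison chosen after the control values were seen. Here 7 of 33 genes were higher in ciliated clones (21.2%, against 5.13% of 13305 genes) and 0 lower (against 7.05%). All 7 were among the 9 called in controls: Gaa (log2 fold change 1.87, edgeR adjusted p = 0.0307), Lamp2 (1.43, 0.0273), Atp6v0d1 (1.24, 0.0195), Sgsh (1.05, 0.0423), Mcoln1 (0.96, 0.0390), Atp6v0a1 (0.91, 0.0227) and Neu1 (0.75, 0.0351). Tpp1 and Lamp1 had edgeR adjusted p = 0.0535 and 0.0801. Mutant groups lay apart with ciliated clones higher for 20 of 33 genes (60.6%, against 27.1%), and these included all 10 that lay apart in controls. They lay wholly below for 2 of 33 (6.06%, against 26.6%), Gusb and Ctsc. Gusb was at 23.2, 50.9 and 53.7 CPM in ciliated Wdr34 clone 1, Wdr34 clone 3 and Wdr60 and at 58.3 and 121 CPM in non-ciliated Wdr34 and Wdr60, with a log2 fold change of -1.09 (edgeR adjusted p = 0.154). For Wdr60, with 1 clone of the same allele in each state, 24 of 34 genes were higher in the ciliated clone (70.6%, against 50.8%), a difference with no test. Its log2 differences included 1.19 for Atp6v0d1, 1.11 for Lamp2, 1.10 for Gaa, 1.09 for Ctsh and -1.16 for Gusb.

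**Figure D3:**
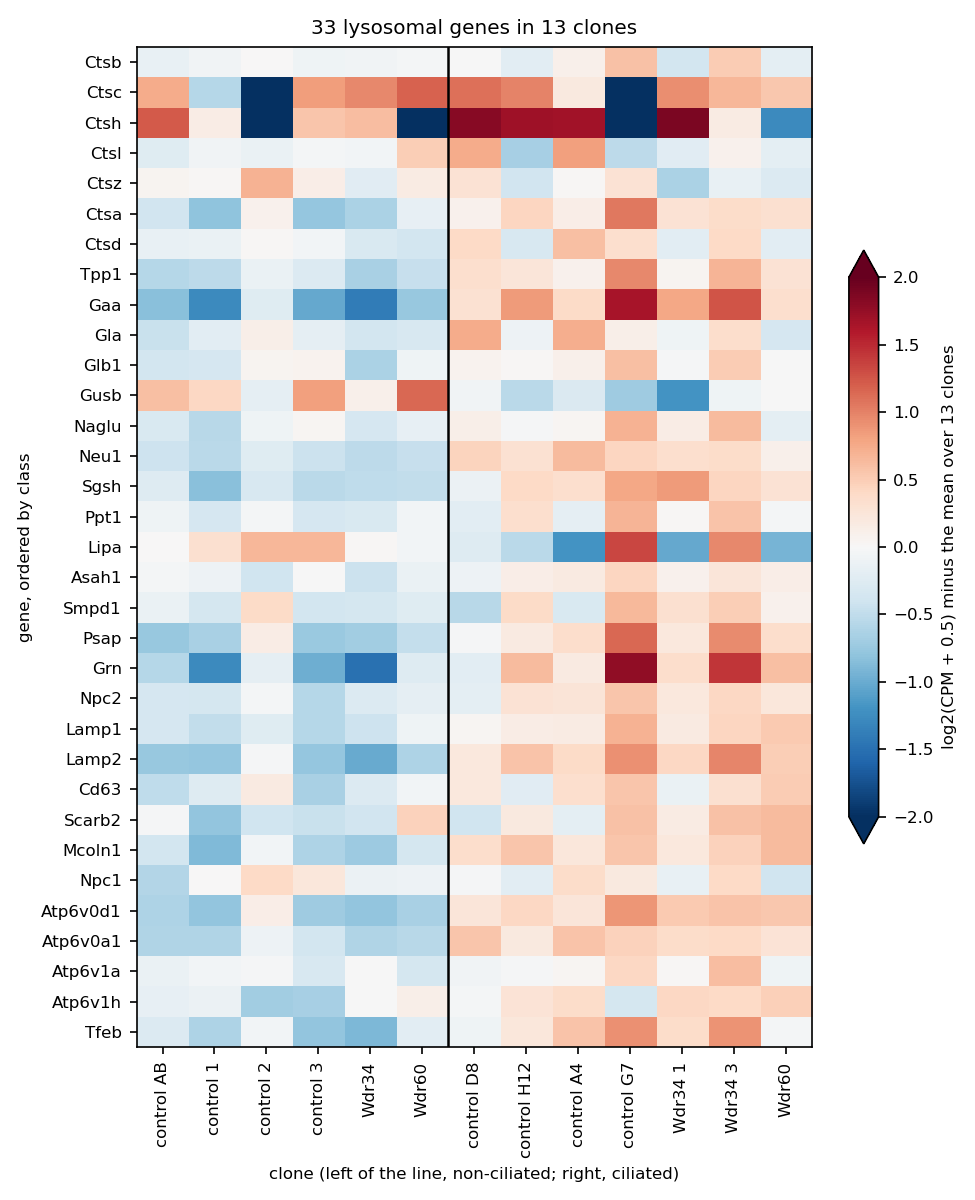
Level of 33 lysosomal genes (rows, ordered by class) in 13 clones (columns, non-ciliated left and ciliated right of the line), as log2(CPM + 0.5) minus the mean over the clones. Most genes are higher in the ciliated clones, Gusb is lower there, and Ctsh and Ctsc are low in G7 and control 2.

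Promoter motifs were set beside the state difference as a description. Of the 9 tested genes with GTCACGTG, 4 were called higher and all 9 had a positive fold change, with a median of 0.65. Of the 19 tested genes with a promoter but without these letters, 5 were called higher and 16 had a positive fold change, with a median of 0.54. Over all genes the shares called higher were 12.6% of 470 with the motif and 5.96% of 9373 without. The fold change was positive for 286 of these 470 genes and for 4730 of the 9373. Gaa and Neu1, with the largest fold change and the smallest p, lacked GTCACGTG in this window.

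Other genes of the lysosomal pathway were taken from lists of 117 symbols, of which 108 were tested between states in controls. Of these, 30 were higher (27.8%, against 6.11% of all genes) and 3 lower (2.78%, against 7.33%) by edgeR. The rest of the V-ATPase gave 6 higher of 15, which were Atp6v0b, Atp6v1b2, Atp6v1c1, Atp6v1d and Atp6v1g1 of both sectors and the accessory subunit Atp6ap2. Other hydrolases gave 5 of 30, other membrane proteins 4 of 16, MiT/TFE and nutrient-sensing genes 4 of 15 (Flcn, Fnip1, Fnip2 and Rragc), cathepsin inhibitors 1 of 4 (Cstb), and autophagy genes 9 of 19, with 1 lower. Mannose 6-phosphate sorting gave 1 higher and 2 lower of 9.

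Among the called genes of these lists the largest increases were Ctns, the cystine exporter, and Gabarapl1, an autophagosome protein. Ctns was at 47.9 CPM ± 21.7 in ciliated and 13.3 CPM ± 4.24 in non-ciliated controls (SD, n = 4 clones; log2 fold change 1.82, edgeR adjusted p = 0.0169). Gabarapl1 was at 177 CPM ± 11.9 against 56.6 CPM ± 12.3 (log2 fold change 1.63, edgeR adjusted p = 0.00698). Sqstm1, an autophagy receptor, rose by 1.61 and Manba, beta-mannosidase, by 1.56 on the log2 scale (edgeR adjusted p = 0.0226 and 0.0370). The 3 lower genes were Gnptab, the enzyme that builds the mannose 6-phosphate tag (log2 fold change -0.94, edgeR adjusted p = 0.0208), Atg5, which acts in autophagosome formation (-0.77, 0.0143), and Ap1s1, a subunit of the AP-1 sorting adaptor (-0.72, 0.0270).

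Other markers moved with the state. Csf1r, a receptor of macrophages, was at 169 to 302 CPM in ciliated and 21.3 to 48.8 CPM in non-ciliated controls, and made up most of the summed level of the 8 macrophage markers (171 to 303 against 25.3 to 54.2 CPM). The defining markers Adgre1 and Tyrobp had 0 counts in every clone. The other tested markers of that list did not pass and went the opposite way, with Cd68 at 1.06 to 3.82 against 2.41 to 4.51 CPM and Ptprc at 0.0269 to 0.437 against 0.0506 to 0.895 CPM. Of 6 proliferation genes, 0 were called by edgeR and 3 had an unadjusted p under 0.05, with a median log2 fold change of -0.36. The part of proliferation in the lysosomal differences was not tested. Wdr34 itself was higher in ciliated controls (log2 fold change 0.61, edgeR adjusted p = 0.0374), and both edited genes were counted in all clones.

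The study's own question was whether mutant and control clones differ. It used DESeq2, with 3 control clones in ciliated cells by its text, and mentions no summing of technical libraries. It listed Hexa among genes higher in ciliated mutants and Ctsh in a gene group lower in ciliated Wdr60 cells. The fit here, with summed clones as the samples and all 4 controls of a state, is not the study's test. None of the lysosomal genes passed it. In ciliated cells 0 of 34 genes were called in either direction (against 0% of 13243 genes), and 0 had an unadjusted p under 0.05 (against 1.12%). In non-ciliated cells 0 of 33 were called (against 0% of 13406) and 0 had an unadjusted p under 0.05 (against 4.34%). The interaction, which tests whether the mutant difference changes with state, gave 0 of 34 (against 0% of 13994), with 0 at an unadjusted p under 0.05 (against 0.972%). DESeq2 on the same summed clones also called 0 lysosomal genes in the 3 comparisons (against 0.0227%, 0.395% and 0.00715% of all genes). The median log2 fold changes of the lysosomal genes changed sign with single clones. In ciliated cells the median was -0.00, with 0.13 without G7 and -0.21 without Wdr34 clone 3 as the extremes over the clones left out. In non-ciliated cells it was -0.08, with -0.19 without Wdr60 and 0.03 without control 2 as the extremes. The interaction median was 0.04, with -0.17 without Wdr34 clone 3 and 0.14 without the ciliated Wdr60 clone as the extremes, and -0.06 without control 2.

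Intervals were taken with the degrees of freedom of the edgeR test. For Neu1 the 95% interval of the log2 fold change between mutants and controls was -0.51 to 0.11 in ciliated and -0.38 to 0.23 in non-ciliated cells. For Gaa it was -0.93 to 0.80 and -1.02 to 0.52, and for Ctsh -3.36 to 2.22 and -4.0 to 2.88.

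The 3 smallest p values in ciliated cells belonged to Hexa, Ctsz and Atp6v1h. Hexa passed the expression filter here through the ciliated Wdr34 clone 3, where it was high, and the other clones had at most 8 counts per library. No fold from the fit of all clones is therefore given for Hexa, and its place in the order says nothing further. Its fitted values with 1 clone left out are given below only to show how they depend on the processing. Ctsz, a carboxypeptidase cathepsin, was at 56, 78.7 and 71.6 CPM in Wdr34 clone 1, Wdr34 clone 3 and Wdr60 and at 106, 66.4, 88.3 and 106 CPM in D8, H12, A4 and G7, which overlap. Its single libraries spread from 38.5 to 98.8 CPM in ciliated Wdr60 and from 84.9 to 155 CPM in G7. The log2 difference was -0.44 (SE 0.22, edgeR adjusted p = 1). In non-ciliated cells the 3 smallest were those of Atp6v1h, Ctsl (0.37, SE 0.17) and Lipa (-0.45, SE 0.22), with edgeR adjusted p = 0.976. For the interaction they were those of Hexa, which entered through the same clone, Ctsl (-0.74, SE 0.50) and Lamp2 (0.37, SE 0.35), with edgeR adjusted p = 1.

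Atp6v1h, the V1 subunit that couples ATP use to the stalk, was above all 4 controls of its state in every mutant clone. It was at 112, 111 and 116 CPM in ciliated Wdr34 clone 1, Wdr34 clone 3 and Wdr60 against 81.3, 102, 108 and 65.7 CPM in D8, H12, A4 and G7. In non-ciliated cells it was at 83 and 90.8 CPM in Wdr34 and Wdr60 against 75.2, 77.5, 51.6 and 53.1 CPM in AB, 1, 2 and 3. It was 1 of 34 genes with that pattern in ciliated cells (against 1.24% of all genes) and 1 of 2 in non-ciliated cells, with Ctsc (against 6.68%). The log2 fold changes were 0.34 (SE 0.19, edgeR adjusted p = 1) and 0.45 (SE 0.21, edgeR adjusted p = 0.976), so the difference did not pass the test in either state. With single libraries as samples, which counts the 4 libraries of a clone as independent, edgeR gave adjusted p = 0.0405 and 0.00798. One gene, Ctsd, lay below all controls in both non-ciliated mutant clones (against 6.29%).

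Single mutant clones differed in which lysosomal genes left the range of the controls. The non-ciliated Wdr34 clone lay below all 4 controls for 10 of 33 genes (against 17.1%): Asah1, Atp6v0d1, Ctsd, Ctsz, Gaa, Glb1, Grn, Lamp2, Tfeb and Tpp1. It lay above them for 3 (against 17.8%). The non-ciliated Wdr60 clone lay below for 3 (against 17.1%) and above for 6 (against 18.9%), which were Atp6v1h, Ctsc, Ctsl, Gusb, Lamp1 and Scarb2. In ciliated cells Wdr34 clone 1 lay below for 6 of 34 (against 10.8%), Wdr60 for 6 (against 14.6%) and Wdr34 clone 3 for 0 (against 16.8%). They lay above all controls for 3 (against 12.4%), 4 (against 16.1%) and 5 genes (against 18.1%), the last 5 being Atp6v1a, Atp6v1h, Hexa, Lamp2 and Npc1. Hexa entered the tested genes through Wdr34 clone 3, where it was high, so its place among these 5 was set by the filter.

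The clones of 1 genotype and state differed as well, which places Ctsh among the lysosomal genes. The range of a gene was the highest minus the lowest of the 4 control clone means of log2(CPM + 0.5). It was called where edgeR's F test over the libraries gave an adjusted p under 0.05 and the range was at least 1. Since the libraries of a clone are technical replicates, this compares these clones and no condition. In ciliated controls 8 of 33 lysosomal genes were called (24.2%, against 29.8% of 12325 genes), and in non-ciliated controls 6 of 33 (18.2%, against 21.9% of 12327). Without the limit on the range the counts were 33 (against 85.4%) and 31 (against 80.5%). The median range was 0.78 against 0.68 for all genes in ciliated and 0.67 against 0.58 in non-ciliated controls.

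**Figure D4:**
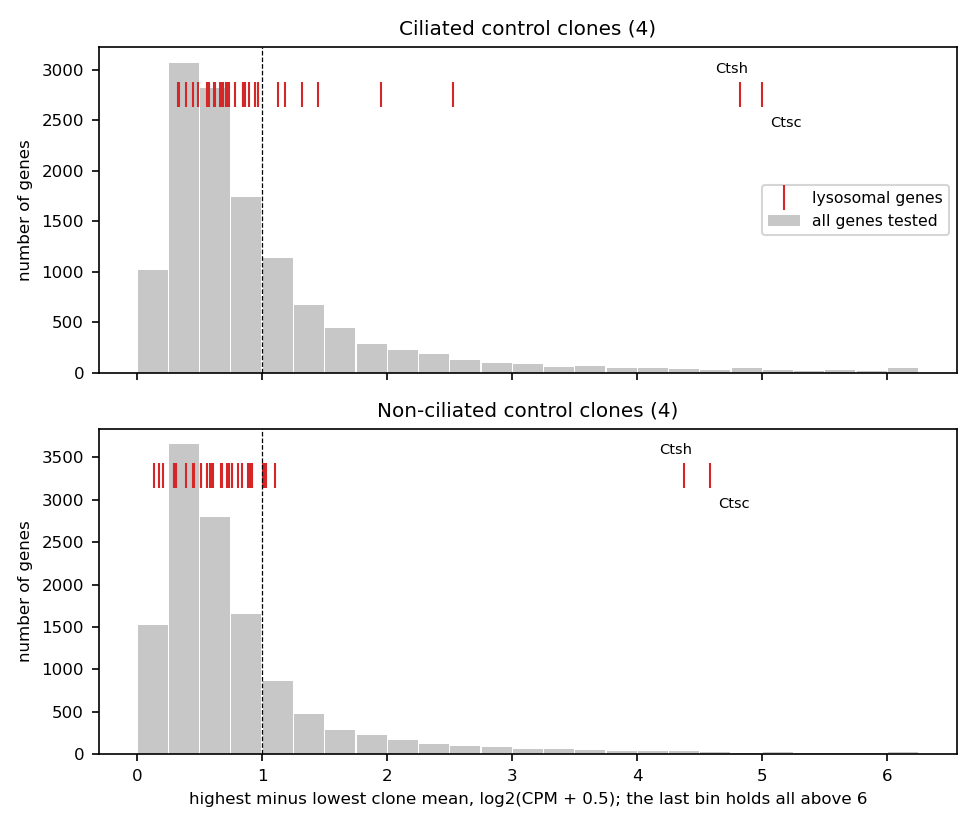
Number of genes (grey bars) by the range over 4 control clones, in log2(CPM + 0.5), with 33 lysosomal genes as red marks and the limit of 1 dashed. Most marks sit within the bulk of all genes, and Ctsc and Ctsh lie far out in both states, above 4.

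Ctsh (chr9:90054267-90076095 in GRCm38.p6) and Ctsc were the exceptions. Ctsh was at 21.9, 20.1, 19.9 and 0.309 CPM in the ciliated controls D8, H12, A4 and G7 and at 14.3, 6.52, 0.209 and 8.80 CPM in the non-ciliated controls AB, 1, 2 and 3. G7 had 2 to 9 counts per library and control 2 had 3 to 5. The range was 4.82, rank 163 of 12325 genes, in ciliated and 4.38, rank 129 of 12327, in non-ciliated controls. Ctsh was listed with its dependence on the clone known from these data, so these values describe it and are no test. Ctsc was at 40.7, 37.6, 21.3 and 0.824 CPM in D8, H12, A4 and G7 and at 31.7, 12.5, 0.949 and 33.7 CPM in AB, 1, 2 and 3. Its ranges were 5.0 (rank 140) and 4.58 (rank 103). G7 and control 2, the clones with low keratins and Cdh1 and high Pax2 and Pax8, were thus the lowest for both genes, and the part of those markers was not tested.

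Without G7 the range of Ctsh over ciliated controls was 0.15 and that of Ctsc 0.94, whereas without control 2 the ranges over non-ciliated controls were 1.09 and 1.41. Ctsh and Ctsc parted in the mutant clones. Ctsh was at 22.9, 6.59 and 2.12 CPM in ciliated Wdr34 clone 1, Wdr34 clone 3 and Wdr60 and at 9.28 and 0.725 CPM in non-ciliated Wdr34 and Wdr60. Ctsc was at 35.9, 29.9 and 27.3 CPM and at 37 and 43.1 CPM in the same clones, in ciliated clones within the range of D8, H12 and A4 and in non-ciliated clones above that of AB, 1 and 3. The Wdr60 clones were thus low in Ctsh and not in Ctsc. Between mutants and controls the log2 fold change of Ctsh was -0.57 (SE 1.2, edgeR adjusted p = 1) in ciliated and -0.56 (SE 1.44, edgeR adjusted p = 0.988) in non-ciliated cells, and the interaction was 0.00 (SE 1.91). The non-ciliated value was 0.33 without the Wdr60 clone and -3.37 without the Wdr34 clone.

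**Figure D5:**
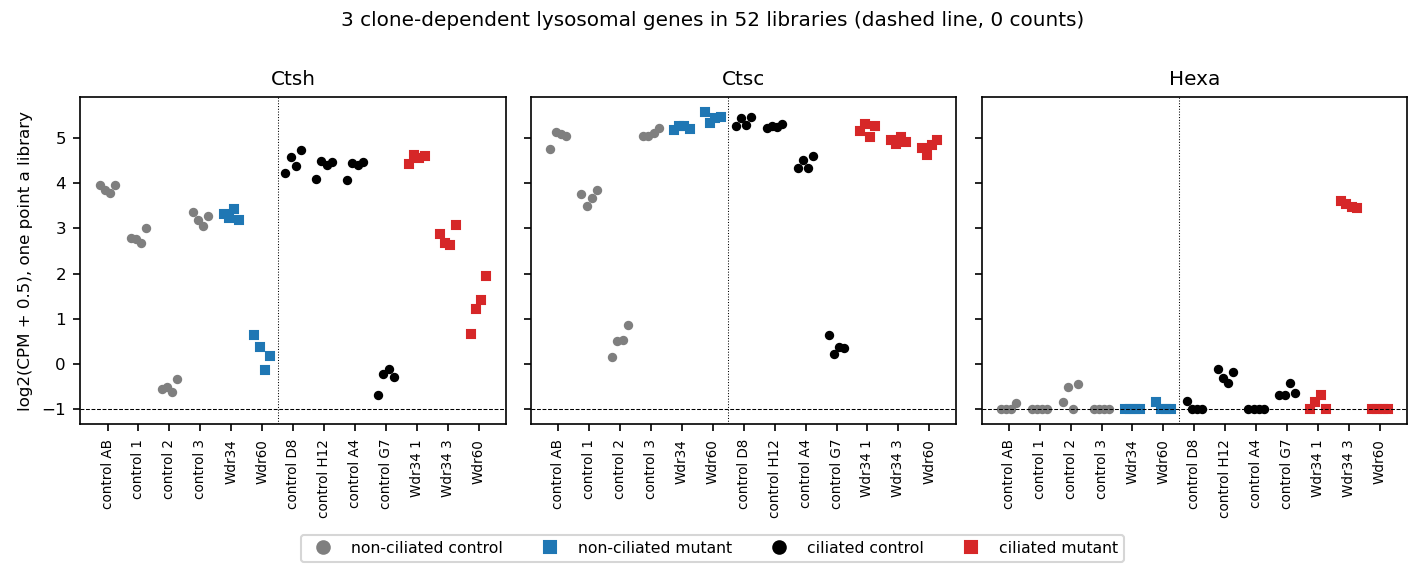
Log2(CPM + 0.5) of Ctsh, Ctsc and Hexa in each of the 52 libraries, grouped by clone, with the value of 0 counts dashed. Ctsh and Ctsc drop in G7 and control 2, Ctsh is also low in both Wdr60 clones, where its ciliated libraries spread from 1.09 to 3.36 CPM, and Hexa rises above the dashed line mainly in the ciliated Wdr34 clone 3.

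Of the other 31 lysosomal genes, 25 in ciliated and 27 in non-ciliated controls had a range under 1. The widest of them in ciliated controls were Lipa (2.52), Grn (1.95), Ctsl (1.45), Gaa (1.32), Smpd1 (1.18) and Psap (1.13). Lipa was at 29.6, 24.4, 15.2 and 91 CPM in D8, H12, A4 and G7, and Ctsl, a major endopeptidase, at 838, 317, 887 and 347 CPM in the same clones. Lipa was thus highest in G7, whereas Ctsl split the clones into pairs. In non-ciliated controls the widest were Grn (1.11), Gaa (1.03), Gusb (1.01) and Npc1 (1.01), and the narrowest Ctsb (0.14), Ctsd (0.17) and Ctsl (0.21). The narrowest in ciliated controls were Mcoln1 (0.33) and Neu1 (0.34). G7 was the highest ciliated control for 21 of 33 genes (63.6%, against 34.3% of all genes), and control 2 the highest non-ciliated control for 22 of 33 (66.7%, against 33.6%). Without G7 the count of called genes in ciliated controls was 1 (against 14.1% of all genes), and without control 2 that in non-ciliated controls was 2 (against 10.8%). Single libraries moved some of these values: Npc1 was at 31.1 CPM in library 1 of control AB and at 56.5 to 56.9 CPM in its other libraries, and Cd63 was at 417 CPM in library 4 of G7 and at 213 to 251 CPM in the others.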

How the data were processed

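By their methods, the authors mapped read pairs to the mouse build GRCm38 in Rsubread, and featureCounts then gave the deposited table of raw counts, one value for each symbol, which they had not normalized. The submitters' processing notes name R 3.4.4 and DESeq2 1.18.1. Strand setting and treatment of reads that map to several genes are not given in the sources used here, so overlapping genes are uncertain.

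The tests were run in edgeR 4.0.16 under R 4.3.3 (filterByExpr, TMM, glmQLFit and glmQLFTest, 2-sided) on all genes, with the 4 technical libraries of a clone summed. Replicates were compared first, and 0 of 78 pairs of libraries of 1 clone were identical. They differed beyond counting error, with a chi-square of 1.99 to 104 per degree of freedom (median 5.47). SE is the size of the log2 fold change divided by the square root of F. The labels name no separate cultures of a clone, so p-values measure the spread between these clones. Clone CPM are means of 4 TMM-scaled libraries, and the pseudocount was 0.5 CPM. The script was tested on simulated data.

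Members and lists were chosen with earlier results of these data known. Named were Ctsh, Tfeb, up to 6 called genes in each direction of a comparison or else the 3 with the smallest p, the 6 widest ranges and up to 4 called genes in each direction from the other lists; further genes were named to account for all 36. Alternatives were single libraries with and without a replicate block, the clone as a random block (limma 3.58.1), DESeq2 1.42.0, size factors by RLE, a filter that asked for 1 count in some clone or for 10 counts in every library, a log2 fold change of at least 1, and leaving out each clone or replicate number. Added alternatives, chosen after the data were seen, were leaving out G7 and control 2 together, and the 5 mutant clones. Promoters were read with python 3.11.15 and pandas 2.3.3. Gene lengths are exon unions of GENCODE vM21.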

Additional observations from a re-analysis of the deposited data

Results flagged for a closer look

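For 33 lysosomal genes in each state, 66 tests in all, the 4 control clones were searched for a clone that stood far from the other three (Dixon's test); 5 values passed (7.58%, against 7% of 24652 tests over all genes), and chance gives about 1 in 20. Ctsh was at 0.309 CPM in ciliated control G7, with the nearest clone at 19.9 CPM. Glb1, beta-galactosidase, was at 53.2 CPM in G7, with the nearest at 37.7 CPM. In non-ciliated control 2, Ctsz was at 140 CPM (nearest 95.1), Psap at 999 CPM (nearest 572) and Lamp2 at 284 CPM (nearest 169). All 5 fell in G7 or control 2, as did 1046 of the 1726 values that passed over all genes (60.6%).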

How the results depend on the processing

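The count of 9 lysosomal genes higher in ciliated controls was 25 with libraries as samples, 25 with the replicate block, 17 with the clone as a random block and 14 with DESeq2, where the share of all genes called higher rose from 6.11% to 31.2%, 30.2%, 12.7% and 12.3%. It was 2 with a log2 fold change of at least 1 and 1 to 12 when 1 clone or replicate number was left out. The count of 1 lower gene, Gusb, was 0 with RLE size factors, with the filter of at least 1 count, with a log2 fold change of at least 1 and in the mutant clones. It was 2 without G7 and control 2, and 0 to 1 when 1 clone or number was left out. Without G7 the 1 lower gene was Lipa and not Gusb. Mutants against controls gave 1 higher gene in ciliated cells with libraries as samples (against 1.58% of all genes). In non-ciliated cells 3 were higher and 2 lower with libraries as samples (against 7.12% and 7.89%) and also with the replicate block (against 5.65% and 5.94%). Ciliated control clones gave 33 genes in place of 8 with no limit on the range and 1 to 11 with 1 clone or number left out. Non-ciliated ones gave 31 in place of 6 and 2 to 6. Reversed were Ctsh in ciliated mutants, 0.089 with the clone as a random block, and 3 values that changed sign when 1 clone was left out. Those were Ctsh in non-ciliated mutants, -3.37 (without Wdr34) to 0.33 (without Wdr60), Hexa in ciliated mutants, -2.49 (without Wdr34 clone 3) to 5.39, and Hexa in the interaction, -0.53 (without Wdr34 clone 3) to 9.20; the Hexa values are fitted against clones near 0 counts and depend on the prior count. The cause was not tested beyond the clones named. Deviations of same-numbered libraries of different clones had a median r of -0.003 over 312 pairs, with single pairs from -0.567 to 0.714. Of 52 libraries, 12 correlated best with their own number. The number was therefore not taken to pair samples, and pairing within some of the clones was not tested. In the state comparison the replicate block called as many lysosomal genes as the same fit without it. Over all genes it gave 3578 higher and 3425 lower in place of 3700 and 3521. In ciliated mutants it gave 0 lysosomal genes in place of 1, Atp6v1h.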
